A study of Mus musculus with 8 samples.

Results

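Contraction in fibroblasts depends on filaments of actin that are pulled past filaments of myosin, and the genes of the smooth muscle form of this machinery are those by which myofibroblasts, the contractile and matrix-producing fibroblasts of scarring lungs, are usually recognised. The 10 genes described here were listed by symbol for that role, with earlier results of these data known. They are the actins *Acta2* and *Actg2*, the actin-binding proteins *Tagln*, *Cnn1*, *Cald1*, *Tpm1* and *Tpm2*, the myosin chains *Myl9* and *Myh11*, and the kinase *Mylk*. All 10 were found among the 54532 entries of the count table and all 10 were among the 14150 genes that passed the filter on low counts, so each was tested.

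RNAseq was performed on primary lung fibroblasts (pFBs) grown out of the lungs of female mice with the strain background C57/black, kept in complete medium with no further treatment. Wild type (WT) pFBs gave 4 libraries, WT1 to WT4. The 4 libraries HOMO1 to HOMO4 came from pFBs of mice homozygous for a knock-in, made with CRISPR/Cas9, from which human IGFBP5 (hIGFBP5), a secreted protein that binds insulin-like growth factors, is expressed in all tissues rather than in fibroblasts alone. The comparison of HOMO with WT asks how the transgene affects expression in these cells. Neither the age of the mice nor the number of mice behind the 8 libraries is stated in the sources used here, so p-values measure the spread between libraries, which may in part be technical.

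Between 17236521 and 31987790 reads were counted per library, so that 3 counts stood for 0.0906 to 0.172 CPM. CPM are counts scaled to the library size after edgeR's TMM correction, and all levels here are in this unit. Within genotypes, 3 pairs of libraries were nearly alike. The biological coefficient of variation was 7.65% between WT1 and WT2, 4.72% between HOMO1 and HOMO2 and 5.07% between HOMO3 and HOMO4, while the remaining pairs of one genotype lay at 30.1 to 56.5%. The libraries thus held 3 distinct WT and 2 distinct HOMO profiles. WT1 and WT2 were nearer to HOMO3 and HOMO4, at 36.4 to 38.3%, than to WT3 and WT4, at 45.7 to 56.5%. The HOMO pairs were nearest to each other, at 30.1 to 31.7%. Mouse *Igfbp5* stood at 7130 counts in WT3 and between 24 and 225 counts in the other 7 libraries, and the human transgene was not analysed here. Markers of fibroblasts such as *Vim*, *Col3a1* and *Pdgfra* were present in all 8 libraries, at no less than 1540, 421 and 126 CPM. Others of the 9 fibroblast markers were low in some libraries, with *S100a4* down to 0.0906 CPM and *Tcf21* to 2.85 CPM in HOMO, *Lum* to 4.07 CPM in WT3 and *Thy1* to 22.3 CPM in HOMO2. The name of the deposited table refers to an outlier that was taken out, and whether a library was removed or replaced is not stated in the sources used here, which bears on every spread within a genotype given below.

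Smooth muscle actin and its partners belong to a set of genes many of whose promoters carry the CArG box, the binding site of serum response factor (SRF), which acts with myocardin or with the related factors encoded by *Mkl1* and *Mkl2*. In non-muscle cells the shuttling of these cofactors links the state of actin to transcription. Myosin is switched on when its regulatory light chain is phosphorylated by the kinase that *Mylk* encodes, while calponin and caldesmon restrain its action on actin and tropomyosin lies along the thin filament.

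RefSeq promoter windows of 250 bases before to 50 bases after a gene start (GRCm38.p6) were at hand for 7 of the 10 genes, in 8 windows. There was none for *Actg2*, *Tagln* and *Myh11*, so the shares below do not describe the whole list. The starts of the *Mylk* window and of the later *Cald1* window lie 39740 and 110944 bases inside the GENCODE M21 genes. The CArG box was searched on both strands in its strict form, with a centre of 6 bases that are all A or T, and in a relaxed form with 1 other base allowed in the centre. The strict form occurred in 1 of the 8 windows, that of *Myl9*, and in 1.63% of the 32851 windows of all genes. Either form occurred in 2 of the 8 windows, those of *Myl9* and *Acta2*, and in 9.98% of all windows. These sequences are shown because they are the windows among the contractile genes that hold the box, with the boxes in capitals. The *Myl9* sequence is chr2:156775294-156775463 on the plus strand, with a strict box starting 161 bases and a relaxed one 99 bases before the gene start. The *Acta2* sequence is chr19:34255374-34255543 on the minus strand, with relaxed boxes starting 84 and 34 bases before the start. These distances are from the RefSeq starts, at 156775464 for *Myl9* and 34255373 for *Acta2*, which lie 44 and 217 bases inside the GENCODE M21 genes, so that the whole printed *Acta2* sequence is within the longer GENCODE gene. A match describes the letters of the window and is not evidence that a factor is bound there.
Myl9: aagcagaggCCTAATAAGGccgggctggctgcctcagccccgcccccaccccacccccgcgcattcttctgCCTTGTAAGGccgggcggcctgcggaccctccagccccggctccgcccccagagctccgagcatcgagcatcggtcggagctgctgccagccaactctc
Acta2: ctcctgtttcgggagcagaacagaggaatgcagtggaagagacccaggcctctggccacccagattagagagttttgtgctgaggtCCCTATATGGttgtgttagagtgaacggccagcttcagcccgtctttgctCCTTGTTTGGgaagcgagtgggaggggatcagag

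None of the 10 contractile genes was a DEG between HOMO and WT, where DEGs had an adjusted p under 0.05 in edgeR's quasi-likelihood test with Benjamini-Hochberg adjustment and an absolute log2 fold change above 0.6. Among all tested genes, 12.1% were DEGs by this rule, 5.94% upregulated and 6.18% downregulated in HOMO. The log2 fold changes of 9 of the 10 genes were below 0, as were those of 52.7% of all tested genes, and the one above 0 was that of *Mylk*. Of the 10 genes, 3 (*Cald1*, *Tpm2* and *Mylk*) had an unadjusted p under 0.05, against 32.3% of all tested genes. In 2 of them the levels of HOMO and WT did not overlap, against 27.3% of all tested genes. *Cald1* was lower in every HOMO library, as were 13.4% of all tested genes, and *Mylk* was higher, as were 14.0%. RNA was taken from whole cultures, in which fewer cells of a type and less RNA per cell cannot be told apart.

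The libraries of one genotype differed more from each other in these genes than in most, apart from *Mylk* in HOMO. The standard deviation of log2 CPM over the 4 HOMO libraries had a median of 1.00 over the 10 genes and of 0.20 over all tested genes, and over the 4 WT libraries it had medians of 1.04 and 0.44. *Mylk* was at 0.15 in HOMO, below the median of all tested genes, and *Cald1* at 0.36 in HOMO and 0.57 in WT. The standard error of the log2 fold change had a median of 0.73 in the contractile genes and of 0.26 in all genes. Within the near-identical pairs the genes were close together, with median absolute log2 differences of 0.15 between WT1 and WT2, 0.08 between HOMO1 and HOMO2 and 0.04 between HOMO3 and HOMO4. The spread in HOMO therefore lay between the pairs. In 9 of the 10 genes HOMO3 and HOMO4 were both above HOMO1 and HOMO2 (37.2% of all tested genes), and in 8 the highest of all libraries was WT3 (27.8% of all tested genes). In 9 genes HOMO1 and HOMO2 were both below every WT library (23.3% of all tested genes), while in 8 HOMO3 and HOMO4 were both above WT1 and WT2 (37.8% of all tested genes). The comparison of the 2 HOMO pairs was not tested, since each pair gives 1 distinct profile.

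**Figure D1:**
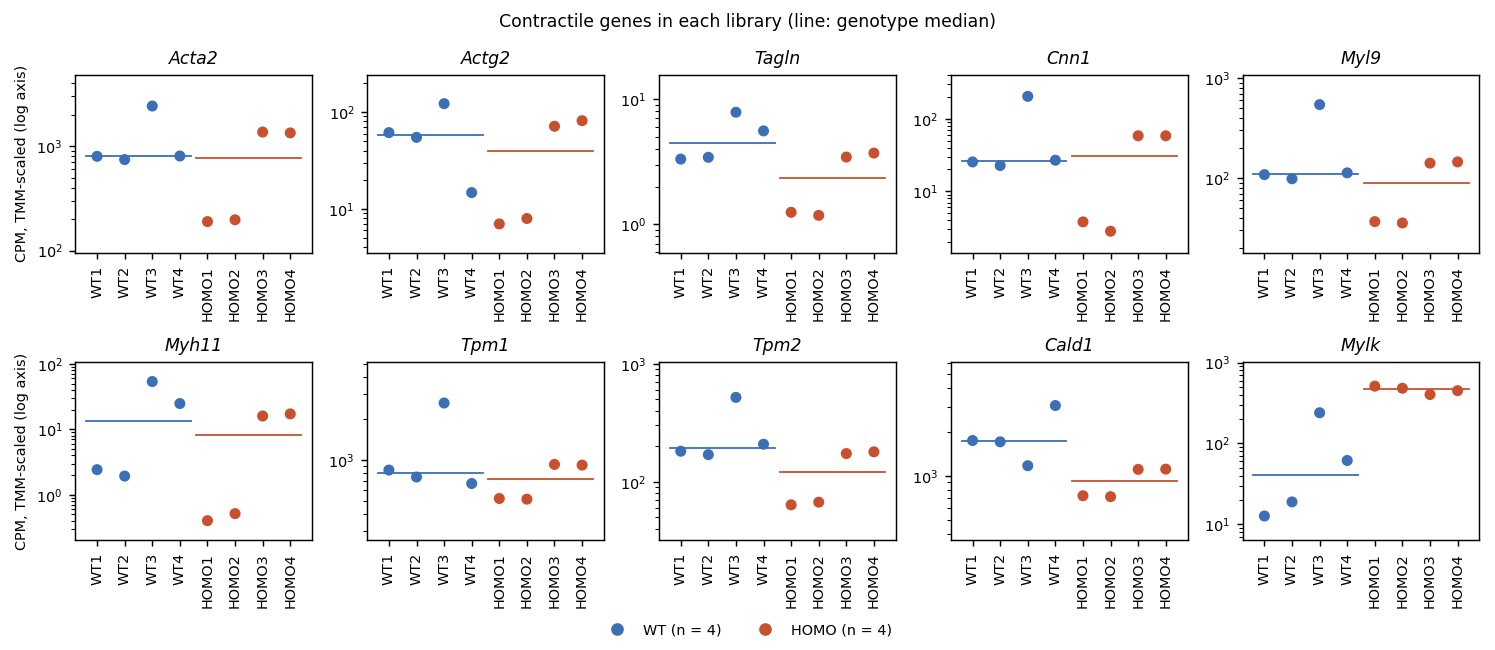
Level of each contractile gene in every library, as CPM on TMM-scaled library sizes (log axis, with its own range in each panel). Points are libraries, blue for WT (n = 4) and orange for HOMO (n = 4), and lines are medians of a genotype; HOMO1 and HOMO2 lie below HOMO3 and HOMO4 in 9 of the 10 panels, *Mylk* being the one where they do not.

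*Acta2* (chromosome 19 from 34241090 to 34255590 of GRCm38, the assembly also called mm10) encodes α-smooth muscle actin, the usual marker of myofibroblasts. *Acta2* was measured at 798, 742, 2415 and 803 CPM in WT1 to WT4, and at 189.6, 197, 1361 and 1336 CPM in HOMO1 to HOMO4. Both HOMO1 and HOMO2 were below every WT library, and both HOMO3 and HOMO4 were above all WT libraries but WT3. HOMO3 and HOMO4 averaged 6.97 times HOMO1 and HOMO2, while WT3 was 3.14 times the mean of WT1 and WT2. The log2 fold change of HOMO over WT was −0.63 (standard error, SE, 0.74, edgeR adjusted p = 0.594), and without WT3 it was −0.02 (SE 0.74).

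*Actg2* (chromosome 6 from 83512905 to 83536265) encodes γ-smooth muscle actin, an actin of visceral muscle. *Actg2* stood at 61.4, 54.8, 122 and 14.7 CPM in the WT libraries and at 6.99, 7.95, 71.3 and 81.5 CPM in the HOMO libraries. The order of the HOMO pairs was that of *Acta2*, with a ratio of 10.2 between them, but here WT4 was the lowest WT library. The genotypes overlapped, with a log2 fold change of −0.59 (SE 0.88, edgeR adjusted p = 0.678) that came to −0.06 without WT3.

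*Cnn1* (chromosome 9 from 22099216 to 22109630), calponin 1, is an actin-binding protein found largely in smooth muscle and myofibroblasts. *Cnn1* was at 25.4, 22.7, 204 and 26.8 CPM in WT and at 3.78, 2.81, 58.3 and 58.3 CPM in HOMO. WT3 stood far above the other WT libraries, which lay close together, and HOMO3 and HOMO4 averaged 17.7 times HOMO1 and HOMO2. The log2 fold change was −1.18 (SE 1.13, edgeR adjusted p = 0.504), and it turned to 0.30 (SE 1.03, edgeR adjusted p = 0.865) when WT3 was left out, so the direction for *Cnn1* rested on 1 library.

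*Tagln* (chromosome 9 from 45929619 to 45936058) encodes transgelin, also called SM22, an early marker of smooth muscle. *Tagln* had only 59, 80, 137 and 144 counts in the WT libraries and 28, 39, 68 and 74 in the HOMO libraries. These counts corresponded to 3.31, 3.43, 7.85 and 5.57 CPM in WT and 1.25, 1.18, 3.44 and 3.70 CPM in HOMO. HOMO3 and HOMO4 were thus at or just above WT1 and WT2, and HOMO1 and HOMO2 were below all WT libraries. Its log2 fold change was −1.08 (SE 0.49, edgeR adjusted p = 0.164). Of the 1988 exon bases of *Tagln* in GENCODE M21, 67.9% are shared with genes on the opposite strand, 62.4% with *Gm48529* and 5.43% with *Pcsk7*. Reads in shared bases cannot be given to one gene unless strand is used, and the strand setting of the counting is not given in the sources used here. *Gm48529* itself had between 13 and 50 counts per library. The part of this overlap in the low level of *Tagln* was not tested, and levels of *Tagln* per length are uncertain.

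*Tpm1* (chromosome 9 from 67022590 to 67049406) and *Tpm2* (chromosome 4 from 43514711 to 43523765) encode α- and β-tropomyosin, coiled-coil proteins that line the actin filament, and each gene also gives forms found outside muscle, which gene counts do not separate. *Tpm1* was at 840.0, 748, 2598 and 669.9 CPM in WT and at 520.4, 515, 924 and 914 CPM in HOMO (log2 fold change −0.76, SE 0.47, edgeR adjusted p = 0.295). *Tpm2* was at 182, 169.8, 519 and 208 CPM in WT and at 63.8, 67.2, 173 and 179 CPM in HOMO (log2 fold change −1.16, SE 0.49, edgeR adjusted p = 0.142, unadjusted p = 0.0428). Both genes repeated the order of *Acta2* among the HOMO pairs, but over smaller ratios of 1.78 for *Tpm1* and 2.69 for *Tpm2*. The means of HOMO3 and HOMO4 and of WT1 and WT2 were nearly equal for *Tpm2*, at 176 CPM each. Without WT3 the log2 fold changes came to −0.07 for *Tpm1* and −0.63 for *Tpm2*.

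*Cald1* (chromosome 6 from 34598500 to 34775473) encodes caldesmon, which binds actin, myosin and tropomyosin, and also has a shorter form in non-muscle cells. *Cald1* was at 1752, 1716, 1175 and 3052 CPM in WT and at 729, 719, 1109 and 1113 CPM in HOMO. It was the one gene of the 10 with every HOMO library below every WT library, and the one in which WT3 was the lowest of the WT libraries. The nearest values were close, with HOMO4 at 1113 CPM and WT3 at 1175 CPM. The log2 fold change was −1.07 (SE 0.31), with an unadjusted p of 0.00792 and an edgeR adjusted p of 0.0548, which missed the threshold for DEGs.

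*Myl9* (chromosome 2 from 156775420 to 156781658) encodes the regulatory myosin light chain of smooth muscle, the protein that the kinase phosphorylates. *Myl9* was at 108, 98.4, 543 and 113 CPM in WT and at 36.6, 35.5, 141 and 145 CPM in HOMO. WT1, WT2 and WT4 lay between the HOMO pairs, and WT3 was 5.25 times the mean of WT1 and WT2. The log2 fold change was −1.27 (SE 0.72, edgeR adjusted p = 0.258), and −0.25 without WT3.

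*Myh11* (chromosome 16 from 14194535 to 14291372), the smooth muscle myosin heavy chain and a marker of mature smooth muscle, had the widest range of the 10 genes. *Myh11* had 43, 45, 940 and 641 counts in the WT libraries and 9, 17, 316 and 344 in the HOMO libraries, or 2.42, 1.93, 53.9 and 24.8 CPM in WT and 0.401, 0.514, 16.0 and 17.2 CPM in HOMO. The near-identical pairs again gave nearly equal values, with HOMO3 and HOMO4 at 36.3 times HOMO1 and HOMO2, and WT3 at 24.8 times WT1 and WT2. Differences within each genotype were larger than that between the genotype means, and the log2 fold change was −1.29 (SE 1.37, edgeR adjusted p = 0.553). With limma-voom and sample weights it was 0.99 (adjusted p = 0.523), in the other direction.

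*Mylk* (chromosome 16 from 34745210 to 35002420) encodes myosin light chain kinase, which is activated by calcium and calmodulin. *Mylk* was at 12.6, 18.9, 239.5 and 61.5 CPM in WT and at 511, 482, 403 and 449 CPM in HOMO. Every HOMO library was above every WT library, and here the 4 HOMO libraries lay close together, with HOMO3 and HOMO4 at 0.859 times HOMO1 and HOMO2. In WT the values spread over more than an order of magnitude, and WT3 was 15.2 times the mean of WT1 and WT2. The log2 fold change was 2.47 (SE 0.84, unadjusted p = 0.0166, edgeR adjusted p = 0.0829). Of the exon bases of *Mylk*, 6.85% are shared with antisense genes that have no row in the table.

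*Cald1* and *Mylk* passed the threshold for DEGs in 3 other analyses of the same counts. DESeq2 called 2913 of the 27146 genes that it gave a p-value (10.7%). The filter on low counts used for edgeR was not applied to DESeq2. DESeq2's own filter leaves genes with low mean counts without an adjusted p, and these could not be called but are in the 27146. The main edgeR fit called 1716 of the 14150 genes that passed the edgeR filter (12.1%). These percentages are therefore not on the same base and do not show which of the 2 called more readily. DESeq2 gave *Cald1* a log2 fold change of −1.07 (adjusted p = 0.0115) and *Mylk* one of 2.48 (adjusted p = 0.00613). With limma-voom and sample weights, which called 25.3%, the log2 fold changes were −0.84 (adjusted p = 0.00167) and 4.62 (adjusted p = 3.09e-06). Without WT3, edgeR called 15.0% of its genes, and *Cald1* was at −1.25 (adjusted p = 0.0220) and *Mylk* at 3.89 (adjusted p = 0.00615). When the counts of each near-identical pair were summed, which leaves 3 WT and 2 HOMO units, edgeR called 0 of 16130 genes (0.00%), 2057 of them with an unadjusted p under 0.05, and the unadjusted p was 0.0734 for *Cald1* and 0.0642 for *Mylk*. With the replicate number as a further term, edgeR called 6.69% of its genes and 0 of the 10. The other 8 genes were called in none of these fits.

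**Figure D2:**
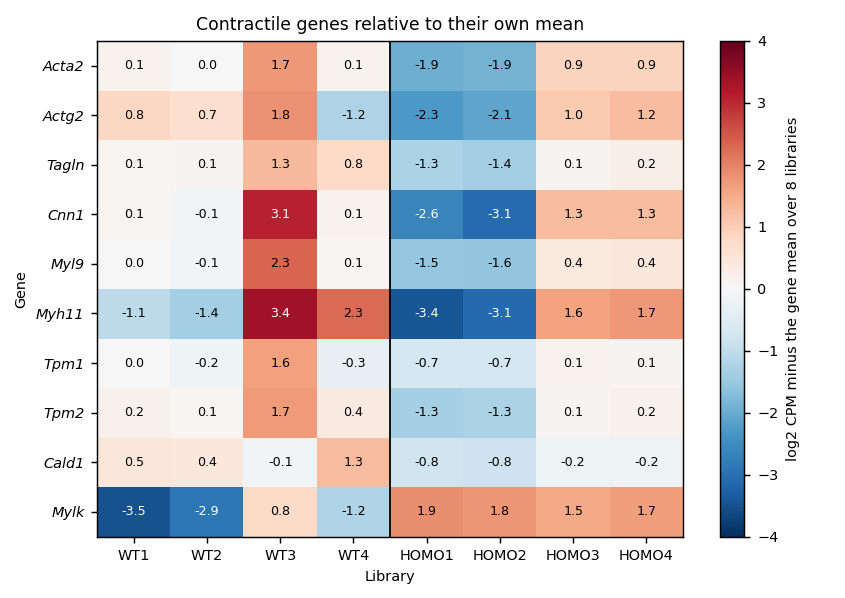
Log2 CPM of each contractile gene (rows) in each library (columns) minus the mean of that gene over the 8 libraries, with the value in each cell, and a line between WT and HOMO. WT3 is positive in 9 rows and HOMO1 and HOMO2 are negative in 9 rows, while the *Mylk* row is positive in all 4 HOMO libraries.

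Levels were also compared per kilobase of exon (CPM per kb), with exons merged over all annotated transcripts of a gene. On this measure *Acta2* had the highest level of the 10 genes in both genotypes, at 542 ± 372 in WT and 351 ± 304 in HOMO (mean ± SD, n = 4 libraries). *Tpm1*, *Myl9* and *Cald1* followed in WT at 187 ± 143, 185 ± 188 and 159.8 ± 66.2, which did not differ beyond their spread, and then *Tpm2* at 92.7 ± 57.5. In HOMO the same genes were next in the same order, at 111 ± 35.7, 77.1 ± 53.2, 76.2 ± 18.5 and 41.6 ± 22.0. *Mylk* was eighth in WT at 7.38 ± 9.46 and sixth in HOMO at 41.0 ± 4.11, level with *Tpm2*. *Actg2* was at 40.6 ± 28.5 in WT and 26.9 ± 25.7 in HOMO, and *Cnn1* at 25.5 ± 32.7 and 11.3 ± 11.6. *Myh11* and *Tagln* were at the bottom, at 2.73 ± 3.23 and 2.54 ± 1.08 in WT and 1.12 ± 1.23 and 1.20 ± 0.688 in HOMO, and these neighbours did not differ beyond their spread in either genotype. The order depends on the merged lengths, such as 12041 bases for *Cald1* and 2196 for *Acta2*, which can exceed the transcripts expressed. In CPM without length scaling, *Cald1* averaged 1924 in WT and 917 in HOMO, above *Acta2* at 1189 and 771.

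The balance between the contractile genes and their relatives can be described within a library, without scaling between libraries, as the percentage of a family's counts per kb of exon that the contractile genes hold. The share depends on the exon lengths used, and for tropomyosins it compares genes and not muscle with non-muscle forms. *Acta2* and *Actg2* together held 16.8, 17.2, 30.7 and 19.4% of the counts per kb of the 6 actins in WT1 to WT4 and 6.89, 7.49, 26.4 and 27.0% in HOMO1 to HOMO4. Smooth muscle actins were thus a minority in every library, beside the cytoplasmic actins *Actb* and *Actg1*, and the HOMO pairs lay on opposite sides of WT1 and WT2. The difference of the means, HOMO minus WT, was −4.06 points (two-sided exact permutation test over 70 assignments, p = 0.457, adjusted over 6 families 0.686).

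*Tpm1* and *Tpm2* held 30.2, 29.1, 48.0 and 29.6% of the 4 tropomyosins in WT and 20.8, 20.2, 29.8 and 30.6% in HOMO. HOMO3 and HOMO4 were level with WT1, WT2 and WT4 here, and the difference of the means was −8.86 points (exact permutation p = 0.257, adjusted 0.686). *Myl9* held 46.5, 43.9, 68.5 and 32.8% of the 3 regulatory light chains in WT and 28.2, 28.2, 59.6 and 60.6% in HOMO, beside the non-muscle chains *Myl12a* and *Myl12b*. Per kb it held the larger part of the family in WT3, HOMO3 and HOMO4, but in counts without length scaling it held between 12.03 and 43.1% and so the smaller part in every library. A further annotated gene also named *Myl12b* shares exon bases with both *Myl12a* and *Myl12b*. Their counts, the exon length for *Myl12b* and with them this share are therefore uncertain. The difference of the means was −3.74 points (exact permutation p = 0.771, adjusted 0.771). *Cnn1* held 2.36, 2.04, 11.0 and 2.04% of the 3 calponins in WT and 0.434, 0.325, 5.72 and 5.56% in HOMO, with a difference of −1.34 points (exact permutation p = 0.714, adjusted 0.771). The smooth muscle calponin was thus a small part of the family next to *Cnn2* and *Cnn3* in every library.

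*Myh11* held 0.131, 0.111, 3.85 and 1.13% of the 4 conventional myosin heavy chains in WT and 0.0359, 0.0495, 1.10 and 1.19% in HOMO, with a difference of −0.71 points (exact permutation p = 0.457, adjusted 0.686). The non-muscle heavy chains *Myh9* and *Myh10* held nearly all of the rest, and *Myh14* was at no more than 1.20 CPM. *Tagln* held 1.02, 1.27, 5.18 and 5.20% of the 3 transgelins in WT and 1.22, 1.17, 1.30 and 1.56% in HOMO, a difference of −1.86 points (exact permutation p = 0.371, adjusted 0.686), with the overlap of its exons as above. None of the 6 differences passed these tests, whose smallest possible p is 0.0286. Without WT3 the differences for *Cnn1*, *Myl9* and *Myh11* were above 0, at 0.868, 3.13 and 0.138 points, and with HOMO1 or HOMO2 left out that for *Myl9* was 1.56 or 1.58 points.

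**Figure D3:**
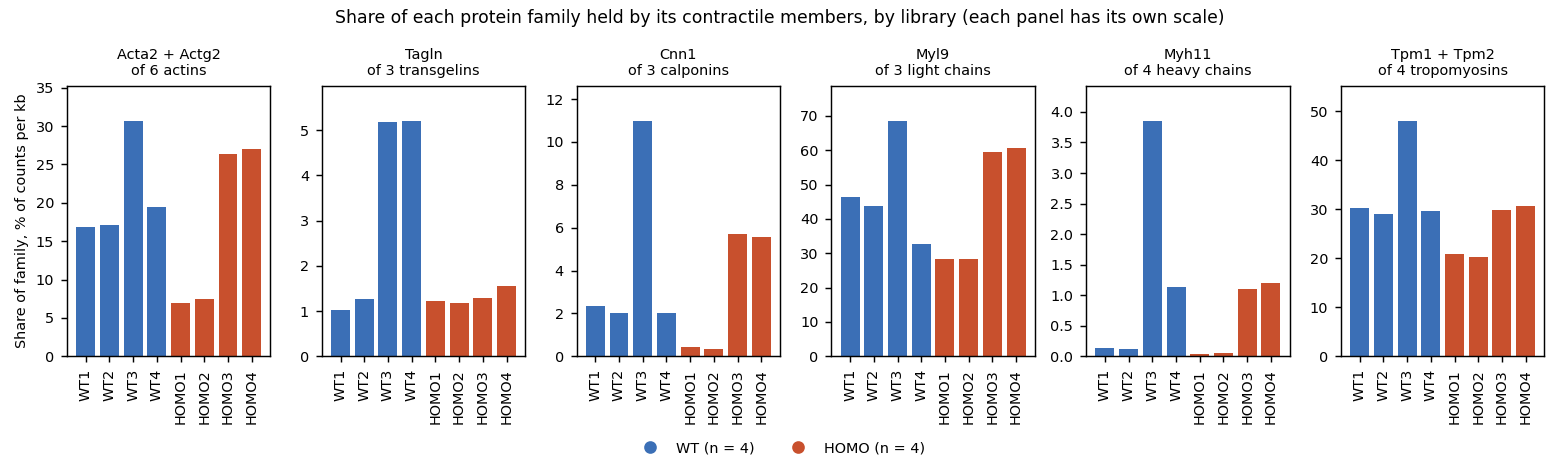
Percentage of a protein family's counts per kb of exon that its contractile genes hold, in each library (bars from 0, 1 panel per family with its own scale; blue WT, orange HOMO). WT3 has the highest bar in 5 of the panels and is nearly level with WT4 in that of *Tagln*, and the bars of HOMO3 and HOMO4 are higher than those of HOMO1 and HOMO2 in all 6.

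Genes of the same machinery outside the 10 were taken from 5 lists (paralogues, actomyosin regulators, SRF and its cofactors, proteins of thin filaments and stress fibres, and matrix genes of myofibroblasts). Together they hold 81 genes in the table, of which 73 were tested, and 2 were upregulated and 11 downregulated in HOMO, where 5.94% and 6.18% of all tested genes were. The median log2 fold change of the 10 contractile genes was −1.07 and that of all tested genes −0.04.

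Among 15 tested paralogues, 2 were downregulated, both of them the non-muscle partners of *Myl9*, and the median log2 fold change was −0.40. *Myl12a* stood between 347 and 699.5 CPM in WT and between 252 and 269.6 CPM in HOMO (log2 fold change −0.96, standard error 0.25, edgeR adjusted p = 0.0401). *Myl12b* had a log2 fold change of −1.24 (SE 0.31, edgeR adjusted p = 0.0331) at no more than 26.8 CPM. *Myl12a* and *Myl12b* are close copies on the same strand that do not overlap each other. A further GENCODE M21 gene also named *Myl12b* shares 462 exon bases with *Myl12a* and 739 with the *Myl12b* gene used here. The count table has no repeated row for this symbol, so which gene its *Myl12b* row stands for, and the split of reads, are uncertain. The cytoplasmic actins *Actb* and *Actg1* had log2 fold changes of −0.52 (adjusted p = 0.211) and −0.26 (adjusted p = 0.453), and the heavy chain *Myh9* one of −0.65 (adjusted p = 0.114). The skeletal muscle actin *Acta1* was at 0.112, 0.0428, 6.53 and 1.16 CPM in WT and 0.178, 0.302, 6.78 and 8.01 CPM in HOMO, and so was highest in WT3, HOMO3 and HOMO4 like its smooth muscle relatives.

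Among 18 tested actomyosin regulators, 2 were downregulated and the median log2 fold change was −0.26. *Rhoc*, a small GTPase that acts on the actin cytoskeleton, had a log2 fold change of −0.84 (SE 0.18, edgeR adjusted p = 0.0208), and *Arhgap42*, which turns off RhoA, one of −1.34 (SE 0.35, edgeR adjusted p = 0.0408). The kinases *Rock1* and *Rock2* had −0.36 (adjusted p = 0.149) and −0.54 (adjusted p = 0.184), and the subunit *Ppp1r12a*, which targets the phosphatase to myosin, had 0.27 (adjusted p = 0.431).

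Among 10 tested genes of SRF and its cofactors, 2 were downregulated and the median was −0.35. *Fhl2*, a LIM-domain protein that binds SRF, was between 69.6 and 213 CPM in WT and between 19.1 and 34.9 CPM in HOMO, a log2 fold change of −2.41 (SE 0.43, edgeR adjusted p = 0.0117). *Klf4*, a repressor of smooth muscle genes, was at 149, 140.0, 55.9 and 166 CPM in WT and at 34.3, 35.4, 49.8 and 52.3 CPM in HOMO, a log2 fold change of −1.57 (SE 0.33, edgeR adjusted p = 0.0194). In *Klf4*, WT3 was the lowest of the WT libraries, where most of the contractile genes were highest. The HOMO pairs went the other way, since *Klf4* was lower in HOMO1 and HOMO2 than in HOMO3 and HOMO4, as were all contractile genes but *Mylk*. A relation between *Klf4* and the contractile genes was not tested. *Srf* itself had a log2 fold change of −0.14 (adjusted p = 0.707), *Mkl1* one of 0.10 (adjusted p = 0.671) and *Mkl2* one of 0.47 (adjusted p = 0.342). *Myocd*, the myocardin gene that marks muscle, was at no more than 0.658 CPM in any library and was not tested.

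Of 19 tested proteins of thin filaments and stress fibres, 2 were upregulated and 3 downregulated, with a median of −0.17. *Zyx* and *Palld*, which encode zyxin and palladin of focal adhesions and stress fibres, had log2 fold changes of 0.88 (SE 0.21, edgeR adjusted p = 0.0319) and 0.95 (SE 0.24, edgeR adjusted p = 0.0383). *Synpo2*, a protein of the Z-disc and stress fibres, had −2.71 (SE 0.61, edgeR adjusted p = 0.0250), and *Pdlim5* had −0.85 (SE 0.20, edgeR adjusted p = 0.0281). The third downregulated gene was *Vim*, the intermediate filament protein vimentin, at −0.65 (SE 0.17, edgeR adjusted p = 0.0430). Of the 11 tested matrix genes, 2 were downregulated and the median was −0.09. *Cthrc1* was at 29.4, 35.0, 73.6 and 4.37 CPM in WT and at 0.00, 0.0301, 1.42 and 2.55 CPM in HOMO (log2 fold change −5.20, standard error 1.33, edgeR adjusted p = 0.0370), and *Tnc*, tenascin C, had a log2 fold change of −1.14 (SE 0.24, edgeR adjusted p = 0.0211). *Col1a1*, which encodes a chain of type I collagen, was at 0.82 (edgeR adjusted p = 0.0985).

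Calls over the 5 lists depended on which libraries were used. With the near-identical pairs summed, 0 of the genes were called, and with HOMO1 or HOMO2 left out 1 was. Without HOMO3, HOMO4 or WT2 there were 3, 5 and 7 called, against 13 with all libraries.

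**Figure D4:**
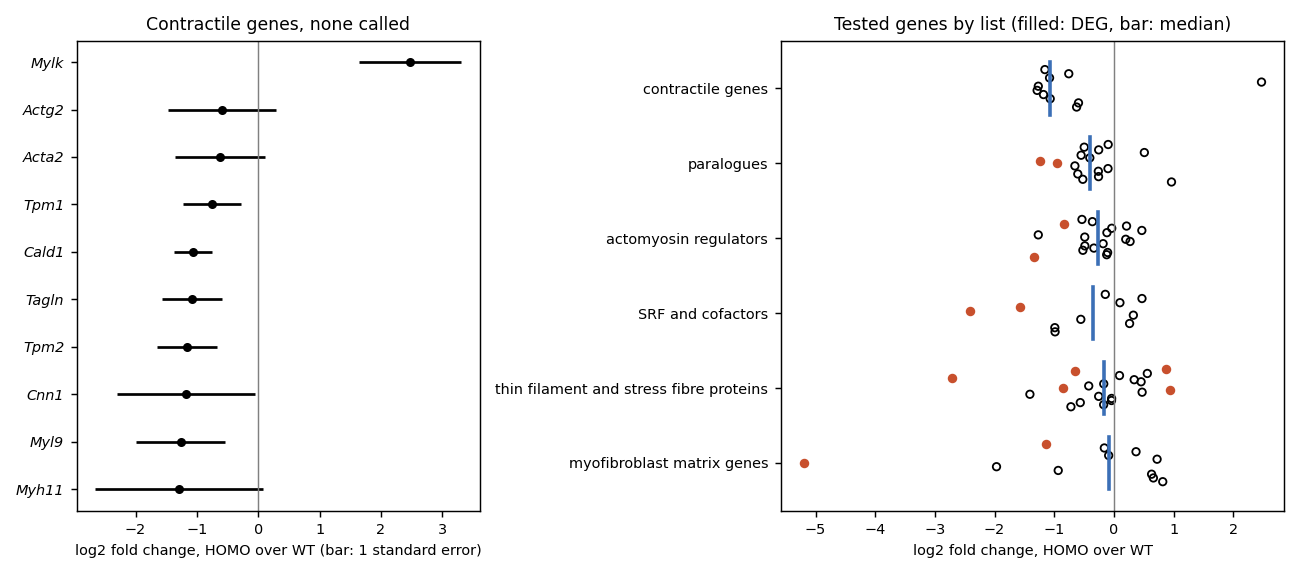
Left, log2 fold change of HOMO over WT of each contractile gene with a bar of 1 standard error on each side; right, log2 fold changes of all tested genes in the contractile list and the 5 related lists (filled orange points are DEGs, blue bars are medians). The contractile genes other than *Mylk* lie between −1.29 and −0.59 and none is a DEG, while 2 DEGs of the related lists lie above 0 and 11 below.

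Markers of other cell types were read in the same libraries, because contractile genes are also expressed by smooth muscle cells, pericytes and skeletal muscle. The 11 smooth muscle and pericyte markers summed to between 202 and 378 CPM in WT and between 97.1 and 132 CPM in HOMO. Of 7 tested markers 2 were downregulated, *Rgs5* at −5.20 (edgeR adjusted p = 0.0486) and *Npnt* at −2.06 (edgeR adjusted p = 0.0364). *Rgs5* had only 59, 90, 12 and 932 counts in WT and 2, 0, 13 and 10 in HOMO, with WT4 far above the rest and WT3 level with HOMO3. The sum of the 11 markers was highest in WT1 and WT2, where *Npnt* was at 279 and 251 CPM. Without *Npnt*, left out with the values known, the other 10 markers summed to 98.9, 93.9, 168 and 128 CPM in WT. In HOMO they summed to between 67.4 and 79.6 CPM. *Lmod1*, given next, made up 89.6 CPM of the sum in WT3. Of the 7 tested markers, 3 were highest in WT3, while *Npnt*, *Rgs5* and *Notch3* had their lowest WT value there. *Notch3* was at 45.9, 50.4, 16.7 and 26.6 CPM in WT1 to WT4. *Lmod1*, leiomodin of smooth muscle, was at 40.6, 33.0, 89.6 and 47.2 CPM in WT and 4.85, 4.38, 35.5 and 34.7 CPM in HOMO. As in *Acta2*, WT3 was the highest library and HOMO1 and HOMO2 the lowest, but HOMO3 and HOMO4 were not above WT1 and WT4 here. Among 9 skeletal muscle markers the factors *Myod1*, *Myog* and *Myf5* were at 0 in every library, where 3 counts would be at most 0.172 CPM, and the sum lay between 2.57 and 36.8 CPM in WT and between 4.76 and 21.6 CPM in HOMO, with 1 of 4 tested markers, *Mylpf*, downregulated.

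The 6 leukocyte markers were higher in WT3 and WT4 than in the other libraries. They summed to 112, 143, 1895 and 1112 CPM in WT1 to WT4 and to 24.4, 23.5, 136 and 156 CPM in HOMO1 to HOMO4, the largest part of it *Lyz2*, the lysozyme of macrophages, and 0 of the 6 tested were DEGs by edgeR (5 with an unadjusted p under 0.05). WT3 was the highest library in 3 of the 6, and without *Lyz2*, left out with the values known, the sum was 191 CPM in WT3 and 201 CPM in WT4. Proliferation markers separated the HOMO pairs in the same direction as the contractile genes but were lower in WT3 than in WT1 and WT2. Their 6 genes, *Mki67* among them, summed to 991, 884, 136 and 57.4 CPM in WT1 to WT4 and to 145, 136, 736 and 677 CPM in HOMO1 to HOMO4, and 0 were DEGs by edgeR, with 0 at an unadjusted p under 0.05. In HOMO, the summed leukocyte and proliferation markers and 9 of the 10 contractile genes, all but *Mylk*, were thus higher in HOMO3 and HOMO4, and their part in each other's values was not tested.

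The 8 mesothelial markers summed to between 53.2 and 239.9 CPM in WT, the highest in WT3, and between 108 and 155 CPM in HOMO, with 1 of 7 tested upregulated (*Wt1*, log2 fold change 3.36, edgeR adjusted p = 0.0166). Epithelial markers summed to no more than 0.541 CPM in WT and 13.6 CPM in HOMO, with *Krt5* at 0 in every library and 1 tested marker, *Cdh1*, upregulated, and the 6 endothelial markers to no more than 8.08 CPM in any library, with 0 of 2 tested called and 0 at an unadjusted p under 0.05. Of 9 fibroblast markers, *Pdgfrb* and *Vim* were downregulated. The part of these other cell types in the values of the contractile genes was not tested.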

How the data were processed

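Poly(A)-selected RNA of pFBs gave 4 WT and 4 HOMO libraries, and the sources used here do not say which of them share a culture or a mouse. The authors aligned the reads with STAR to mm10 and counted them with featureCounts, and the deposited values are these raw counts per gene symbol. The strand setting is not given in the sources used here. All 8 libraries were used, and 0 other columns with values of single samples were present. Of 54532 entries, 27324 had at least 1 count, and 100 stood on a repeated symbol, none of them a gene named here.

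Counts were compared with edgeR 4.0.16 in R 4.3.3 (TMM, filterByExpr by genotype, quasi-likelihood F test, two-sided, Benjamini-Hochberg over 14150 genes), with DESeq2 1.42.0, limma-voom (limma 3.58.1), other scalings and filters, the replicate number as a block, summed pairs and each library left out as alternatives. The SE of a log2 fold change is its absolute value over the square root of F, and a prior count of 2 was added for log2 CPM. The floor of 3 counts covers counting error only. Scripts were tested on simulated data. Positions and exon overlaps come from GENCODE M21, and promoter sequences from RefSeq (GRCm38.p6). Genes named were all 10 contractile genes, up to 4 DEGs with the largest changes per list, genes that set a family share, the 8 genes most like the contractile mean, and markers at 0 in every library. *Vim*, the fifth DEG of its list, *Gm48529*, *Pcsk7*, *Lmod1* and further list genes without a call were picked for mention with their values known. The contractile genes and all lists were chosen with earlier results of these data known. Human hIGFBP5, protein and qPCR measurements were not analysed here.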

Additional observations from a re-analysis of the deposited data

Results flagged for a closer look

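Of 32 groups of 4 libraries examined (10 genes and 6 family shares in each genotype), 6 had a library whose gap to its nearest neighbour was above Dixon's critical value for 4 values, where chance flags about 1 in 20. In all 6 that library was WT3 among the WT libraries. In log2 CPM, WT3 stood at 11.24 for *Acta2* (other WT libraries 9.54 to 9.65), at 7.67 for *Cnn1* (4.51 to 4.75), at 9.09 for *Myl9* (6.62 to 6.82) and at 11.34 for *Tpm1* (9.39 to 9.71). For the share of a family held by contractile genes, WT3 stood at 10.97% for the calponins (2.04 to 2.36%) and at 48.0% for the tropomyosins (29.1 to 30.2%). Since WT1 and WT2 are near-identical, the other 3 WT libraries hold 2 distinct profiles, so these gaps rest on fewer independent values than the rule assumes. Among HOMO libraries a flag was hardly possible, because each has a near-identical partner, so the rate of 1 in 20 does not apply to them and the absence of HOMO flags says nothing.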

How the results depend on the processing

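Of 170 log2 fold changes (10 genes under 17 alternatives), 162 kept their direction and side of the threshold, 6 passed it (*Cald1* and *Mylk* under DESeq2, limma-voom and without WT3, 2 genes called in each) and 2 turned, *Cnn1* to 0.30 without WT3 (from −1.69 to 0.30 with each library left out) and *Myh11* to 0.99 with limma-voom. In the other alternatives 0 of the 10 genes were called. The alternative without a fold change threshold was the main fit itself, so its log2 fold changes could not differ. With each library left out in turn, 0 to 2 of the 10 genes, 507 to 2192 of all genes and 1 to 17 of the 5 related lists were called. Against 1716 DEGs over all genes, DESeq2 gave 2913, limma-voom 3573 and the replicate block 947, and with the near-identical pairs summed 0 were called by edgeR (2057 at an unadjusted p under 0.05). Over the 5 lists, limma-voom called 21 genes, the replicate block 6 and summed pairs 0, against 13. Whether the replicate numbers pair the samples is not stated in the sources used here. The deviations of same-numbered libraries from their genotype means correlated at −0.09, −0.04, 0.01 and −0.12. These values cannot decide it, because the near-identical pairs within genotypes shape the deviations. Under the replicate block 0 of the 10 genes were called (*Mylk* 3.48, edgeR adjusted p = 0.0752).

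With each library left out, the difference of family shares (HOMO minus WT) ranged from −7.41 to −0.71 points for actins, from −2.58 to −1.18 for transgelins, from −2.24 to 0.868 for calponins, from −9.22 to 3.13 for light chains, from −1.11 to 0.138 for heavy chains and from −10.6 to −4.25 for tropomyosins. The share differences above 0 were 0.868, 3.13 and 0.138 without WT3 for calponins, light chains and heavy chains, and 1.56 and 1.58 without HOMO1 and HOMO2 for light chains. Without length scaling the differences were between −7.88 and −0.46 points and none passed. The causes of these changes were not tested. Depth was not limiting for most of the genes, but *Myh11* in HOMO1 and HOMO2 and *Tagln* rest on few counts. With 3 WT and 2 HOMO distinct profiles, an exact test could not go below p = 0.20.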

Other observations

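Among 9446 tested genes with a mean of at least 10 CPM, with the contractile genes set aside, the 8 whose log2 CPM was most like the mean log2 CPM of the 10 contractile genes over the 8 libraries were *Fndc1* (Pearson r = 0.989), *Gpc1* (0.987), *Dpy19l1* (0.975), *Csnk1a1* (0.970), *Hspa1b* (0.969), *Igf1* (0.966), *Arpc1a* (0.965) and *Slc25a39* (0.964). These values describe libraries that include 3 near-identical pairs and were picked as the highest of many, so no p is given. *Fndc1*, a protein with fibronectin domains, was at 46.3, 62.3, 252 and 72.5 CPM in WT1 to WT4 and at 19.1, 24.0, 115 and 137 CPM in HOMO1 to HOMO4. *Gpc1*, the cell surface proteoglycan glypican 1, was at 25.6, 22.1, 53.4 and 33.9 CPM in WT and at 13.5, 13.7, 35.2 and 39.4 CPM in HOMO. Both share with *Acta2* the low values of HOMO1 and HOMO2 and the high value of WT3, which are features of the mean by which they were picked. None of the 8 genes was a DEG by edgeR. That mean overlaps between genotypes, at 6.12 to 8.21 in WT and 5.04 to 7.21 in HOMO. The absence of calls is thus largely set by the choice of genes and is not compared with all tested genes. Among the contractile genes themselves, r with that mean was 0.984 for *Cnn1*, 0.972 for *Acta2* and 0.970 for *Myl9*, but 0.343 for *Cald1* and 0.0108 for *Mylk*. Each of these genes is itself part of the mean, which raises its r, so these values do not compare with those of the 8 other genes.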
